A study of Mus musculus with 16 samples.

Results

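Muscle receives its nerve signal through the nicotinic acetylcholine receptor, and the genes examined here encode the subunits of that receptor and proteins that respond to loss of the nerve. They were the 9 genes *Chrna1*, *Chrnb1*, *Chrnd*, *Chrne*, *Chrng*, *Musk*, *Ache*, *Ncam1* and *Runx1*, taken by symbol from a table of 26382 genes in mouse muscle, and all 9 passed a filter on low values. Their levels were compared between legs injected with HRS, recombinant histidyl-tRNA synthetase that induces myositis, and control legs. In the HRS legs, *Chrna1*, *Chrnd*, *Chrng*, *Ncam1* and *Runx1* were raised against the other leg of the same mice, by 5.38 to 30.4 times in the ratio of group means, whereas the adult receptor subunit gene *Chrne* and the cholinesterase gene *Ache* were at 1.2 and 1.04 times. HRS was always on the left, and in a fit that subtracted the difference between sides in 2 mice without HRS, *Runx1* was called at a log2 fold change of 3.05, and *Chrng* (3.38), *Ncam1* (1.82), *Chrnd* (1.65) and *Chrna1* (1.28) did not pass the adjusted p. The HRS leg of mouse m866 was at the level of PBS legs for most of these genes, and its *Chrng* was below that of its own PBS leg.

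The adult muscle receptor is assembled from the alpha, beta, delta and epsilon subunits and is gathered under the nerve ending, where MuSK organises the clusters and acetylcholinesterase breaks down the transmitter. In fetal muscle, and in adult muscle that has lost its nerve, fibres make receptor along their whole length, and the gamma subunit encoded by *Chrng* takes the place of the epsilon subunit encoded by *Chrne*. Neural cell adhesion molecule (*Ncam1*) and the transcription factor RUNX1 are also raised in denervated fibres, but regenerating fibres, nerve and Schwann cells make *Ncam1*, and many leukocytes make *Runx1*.

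The data were 16 bulk RNA libraries of hamstring muscle from 9 female C57BL/6 mice of 8 to 10 weeks, with tissue taken on day 14 after injection. In mice m862 to m866, the left leg has the treatment label HRS at 3 to 5 mg/mL and the right leg phosphate-buffered saline (PBS), with the side taken from the titles, which makes 5 HRS legs and 5 contralateral PBS legs. Mice m867 and m868 had PBS on both sides and gave 4 libraries, called PBS-only mice, so this group holds 2 animals. Mice m860 and m861 gave 1 library each under the same treatment label, but their titles name an MBP form at 2 to 3 mg/mL and no side (HRS-MBP). The general protocol describes 50 µL of HRS in each hamstring, whereas the titles separate the legs, and the titles were followed. In the mice with HRS, side and treatment therefore cannot be told apart within a mouse. RNA was poly(A)-selected and prepared with a kit that keeps the strand, and 3 Illumina platforms were named without saying which library was run on which, so platform and treatment cannot be told apart either.

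Values are normalized counts per gene as deposited. If the most frequent non-zero value of a library is taken as the worth of 1 read, the implied depth was 8600000 to 73900000 reads, and the 4 PBS-only libraries included the 2 shallowest. Fibre genes were abundant in every library, with a sum over 12 markers of skeletal muscle fibres of 50903 to 255618. The HRS leg of m866 stood apart from the other HRS legs. Its fibre sum was 213005, against 50903 to 125442 in the other HRS legs and 157149 to 255618 in the contralateral PBS legs, and its sum over 10 leukocyte markers was 1018, against 2207 to 5132 and 85.8 to 247. The log2 fold changes of the 9 genes are given with and without this leg.

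Positions in the table match the GENCODE M21 annotation of GRCm38 for all 9 genes, although the submitters' notes list mm39, and all 9 are protein-coding. *Chrnd* (ENSMUSG00000026251.13, chr1:87190607-87200070, plus strand) and *Chrng* (ENSMUSG00000026253.14, chr1:87204657-87212694, plus) are neighbours. *Chrna1* (ENSMUSG00000027107.3) lies at chr2:73563215-73580338 on the minus strand, *Musk* (ENSMUSG00000057280.15) at chr4:58285960-58374303 on the plus strand, and *Ache* (ENSMUSG00000023328.14) at chr5:137287519-137294466 on the plus strand. *Ncam1* (ENSMUSG00000039542.16) lies at chr9:49502136-49798925, *Chrnb1* (ENSMUSG00000041189.9) at chr11:69784036-69795943, *Chrne* (ENSMUSG00000014609.16) at chr11:70614883-70619216 and *Runx1* (ENSMUSG00000022952.17) at chr16:92601466-92826149, all on the minus strand. *Chrne* overlaps *4930544D05Rik* and *Ncam1* overlaps *Gm11149*, both on the opposite strand. How the counting used strand is not given in the sources used here, so reads in these overlaps may have been split, and the highest value in any library was 2.25 for *4930544D05Rik* and 0.33 for *Gm11149*.

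The promoters of *Chrng*, *Chrna1* and *Chrne* are shown because *Chrng* and *Chrna1* were called higher in HRS legs and *Chrne* was not. The windows run from 250 bases before to 50 bases after the start in RefSeq (GRCm38.p6), and 7 of the 9 genes had a window. Capitals mark the E-box CANNTG, the motif bound by myogenic factors such as myogenin, in *Chrng* (chr1:87205561-87205860, plus strand) and *Chrna1* (chr2:73580289-73580588, minus strand). In *Chrne* (chr11:70619145-70619444, minus strand) they mark CCGGAA, the N-box (searched on both strands), known from genes transcribed under the nerve ending.
Chrng: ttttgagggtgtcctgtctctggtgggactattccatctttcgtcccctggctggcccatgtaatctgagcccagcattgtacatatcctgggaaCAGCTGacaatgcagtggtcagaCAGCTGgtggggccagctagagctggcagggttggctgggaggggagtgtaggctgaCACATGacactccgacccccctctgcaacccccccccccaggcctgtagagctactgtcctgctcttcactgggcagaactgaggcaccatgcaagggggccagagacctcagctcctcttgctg
Chrna1: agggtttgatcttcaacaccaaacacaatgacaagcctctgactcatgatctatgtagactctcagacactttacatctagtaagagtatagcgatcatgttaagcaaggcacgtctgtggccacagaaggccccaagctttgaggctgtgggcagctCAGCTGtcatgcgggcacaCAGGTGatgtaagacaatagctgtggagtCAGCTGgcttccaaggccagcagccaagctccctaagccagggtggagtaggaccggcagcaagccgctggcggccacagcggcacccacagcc
Chrne: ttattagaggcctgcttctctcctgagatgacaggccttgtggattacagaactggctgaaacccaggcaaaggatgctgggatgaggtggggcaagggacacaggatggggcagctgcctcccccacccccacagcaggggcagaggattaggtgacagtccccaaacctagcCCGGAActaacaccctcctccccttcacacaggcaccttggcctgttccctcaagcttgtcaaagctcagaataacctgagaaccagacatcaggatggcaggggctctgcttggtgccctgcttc
The *Chrng* and *Chrna1* windows each held 3 E-boxes, of which 2 had the letters CAGCTG, a form of CANNTG that reads alike on both strands. The windows of *Musk* and *Chrnb1*, which were not called, also held 3 E-boxes each, as did 1 of the 2 windows of *Runx1*. Those of *Chrne* and *Ache* held 1 each, so all 7 genes with a window had an E-box. Among 32851 windows of this length, 72.3% held CANNTG, 16.3% held CAGCTG and 1.9% held CAGCTG at least 2 times. The *Chrne* window held 1 CAGCTG and 1 N-box. An N-box was also found in 1 of the 2 windows of *Runx1*, and 14.9% of all windows held one. *Musk* had 1 CAGCTG, and the windows of *Chrnb1* and *Ache* had none. The letters TGTGGT (or ACCACA), as bound by RUNX factors, were found among these genes in 1 of the 2 windows of *Runx1* only, and in 16.8% of all windows. A match describes letters and does not show that a factor binds there.

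*Chrng*, the fetal subunit gene, had the widest range of the 9 genes in relative terms. Its values in the HRS legs of m862 to m866 were 12.9, 11.1, 6.98, 26.6 and 0.156, and in the PBS legs of these mice they were 0.224, 0.461, 0.554, 0.147 and 0.512. The PBS-only legs were at 0.171 and 0.0809 (right and left, m867) and 0.243 and 0.0652 (m868), and the HRS-MBP libraries at 11.1 and 3.69. Thus 4 HRS legs and both HRS-MBP libraries lay above every PBS library, and the HRS leg of m866 lay among them, below the PBS leg of its own mouse. The PBS values rested on few reads, with the worth of 71 reads over the 5 contralateral legs and 11 over the PBS-only legs, against 3798 in the HRS legs. Pooled over libraries, the ratio of HRS to contralateral PBS legs was 32.4 with an exact interval at 95% of 25.6 to 41.6, which covers counting error only. The log2 fold change on the log2(value + 0.5) scale, which understates the change of low genes, was 3.08 ± 0.70 (SE, limma, adjusted p = 0.00195) and became 3.95 without the HRS leg of m866.

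*Chrna1* encodes the alpha subunit, which carries the transmitter site. It was at 73.1, 56.9, 56, 115 and 14.6 in the HRS legs of m862 to m866, against 4.9, 21.2, 14.4, 10.9 and 7.22 in their PBS legs. In PBS-only mice the values were 9.04, 20.3, 8.01 and 15.2, and HRS-MBP at 51.6 and 26.7. Every HRS leg was above the PBS leg of its mouse, but the HRS leg of m866 fell within the range of PBS legs. The mean was 63.1 ± 36.2 (SD, n = 5) in HRS legs and 11.7 ± 6.43 (SD, n = 5) in contralateral PBS legs, with a log2 fold change of 2.28 ± 0.48 (SE, limma, adjusted p = 0.00129).

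*Chrnd*, the gene of the delta subunit, followed nearly the same order. It was at 17.4, 15.3, 9.22, 29.2 and 3.52 in the HRS legs of m862 to m866 and at 0.705, 4.19, 1.94, 2.06 and 2.29 in the PBS legs. Its PBS-only values were 1.85, 4.49, 2.79 and 3.52, and its HRS-MBP values 12.1 and 6.25. The 4 HRS legs other than that of m866 lay above all PBS legs. The log2 fold change against the contralateral legs was 2.34 ± 0.46 (SE, limma, adjusted p = 0.000764).

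*Chrnb1* encodes the beta subunit and had the highest median level per length of exon among the receptor genes in both groups of PBS legs. It was at 68.1, 47.3, 38.2, 66 and 27.4 in the HRS legs and at 31.4, 33.8, 28.6, 32.8 and 24.9 in the PBS legs of m862 to m866. PBS-only legs gave 26.4, 22.6, 26.4 and 28.9, and HRS-MBP at 42.4 and 26.7. It was higher in the HRS leg of 5 of 5 mice, by a smaller step than the alpha, gamma and delta genes. Its log2 fold change of 0.62 ± 0.21 (SE, limma, adjusted p = 0.0189) was under the fold threshold of 1 on the log2 scale.

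*Chrne* encodes the epsilon subunit of the adult receptor. Its HRS legs were at 13.9, 8.93, 6.27, 7.48 and 16, against 4.77, 16.8, 8.78, 8.26 and 5.33 in the PBS legs of m862 to m866. The PBS-only legs were at 7.79, 17.5, 8.61 and 16, and HRS-MBP at 6.99 and 2.98. The HRS and PBS legs overlapped throughout, and the HRS leg was the higher in 2 of 5 mice, m862 and m866. The log2 fold change was 0.30 with an interval at 95% of -0.46 to 1.05 (adjusted p = 0.479 from limma).

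**Figure D1:**
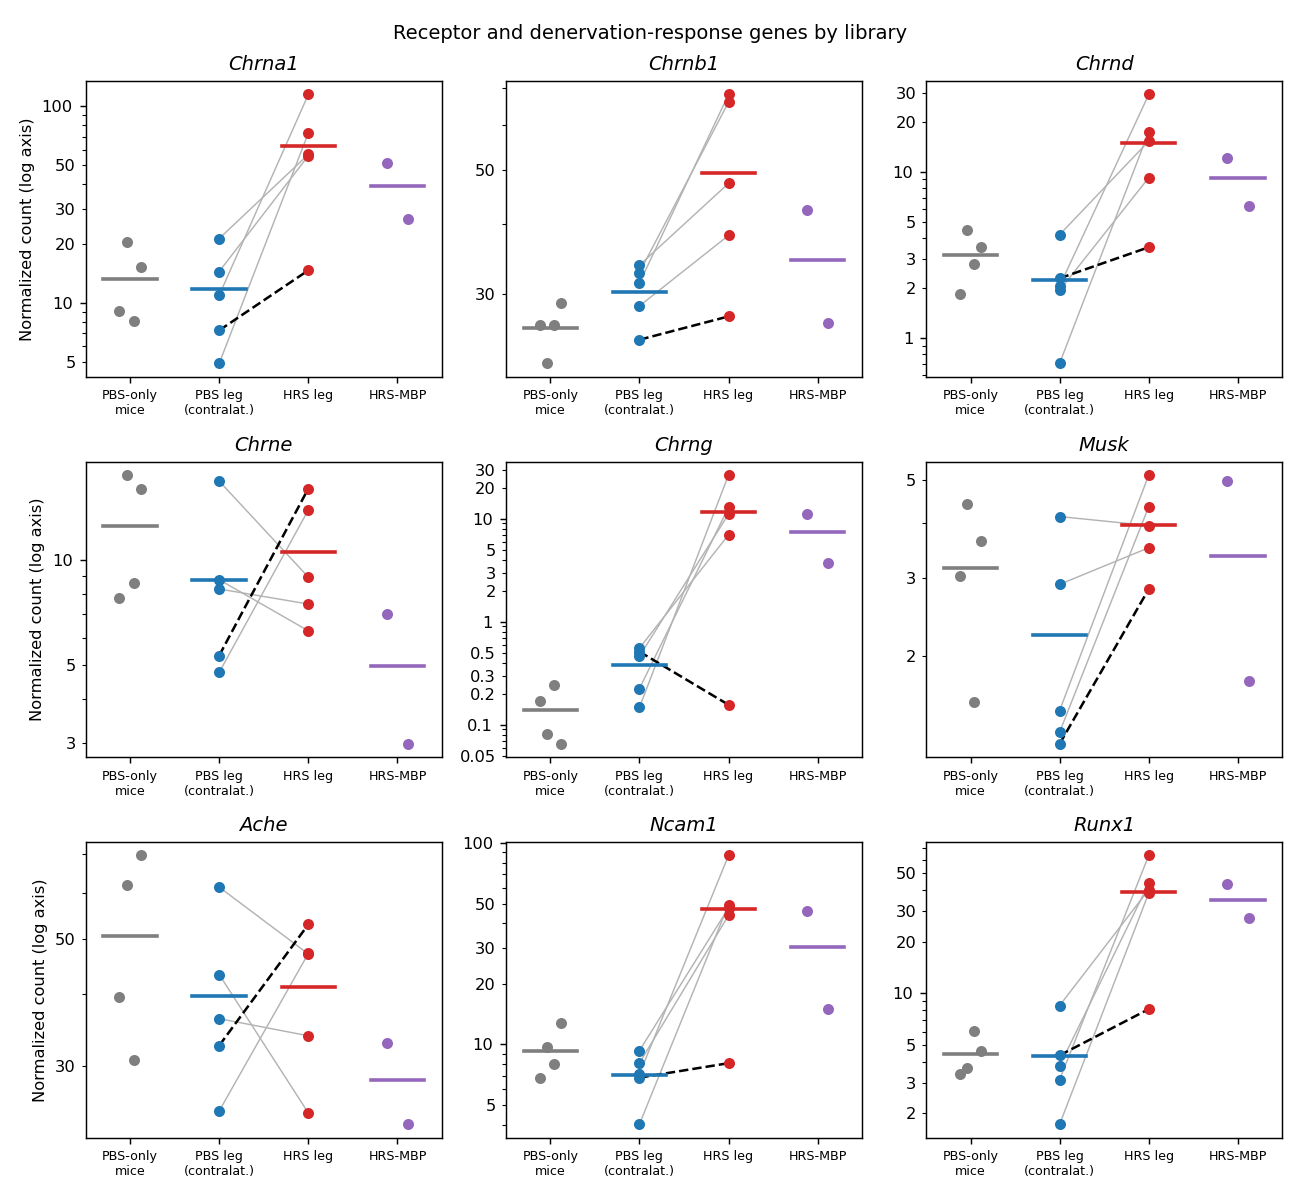
Normalized count (log axis) of each of the 9 genes in all 16 libraries, by group. Points are libraries, horizontal bars are group means, lines join the legs of a mouse and the dashed line is m866. For *Chrng*, 4 HRS legs at 6.98 to 26.6 stand above the contralateral PBS legs at 0.147 to 0.554, and the HRS leg of m866 is at 0.156.

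The balance of fetal and adult subunit transcripts was read from *Chrng* and *Chrne* in the same library, a description that carries no test here. The ratio of *Chrng* to *Chrne* normalized counts was 0.928, 1.24, 1.11, 3.56 and 0.00971 in the HRS legs of m862 to m866. In PBS legs it was 0.0178 to 0.096 (contralateral) and 0.00407 to 0.0282 (PBS-only), and it was 1.58 and 1.24 in the HRS-MBP libraries. On the log2 scale with 0.5 added to both genes, the mean was -0.51 ± 2.43 (SD, n = 5) in HRS legs, -3.29 ± 0.67 (SD, n = 5) in contralateral PBS legs, -4.27 ± 0.75 (SD, n = 4) in PBS-only legs and 0.45 ± 0.25 (SD, n = 2) in HRS-MBP libraries. The wide SD of the HRS legs came from m866, and the difference between HRS and contralateral PBS legs was 2.78 with that leg and 3.82 without it. Per kilobase of annotated exon, *Chrng* exceeded *Chrne* in 1 library, the HRS leg of m865 (6.4 against 4.42), and the other HRS and HRS-MBP libraries apart from m866 had 0.377 to 0.643 of the *Chrne* level. The exon length joins all annotated transcripts (4163 bases for *Chrng* and 1690 for *Chrne*), so the level per length depends on which transcripts are made.

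**Figure D2:**
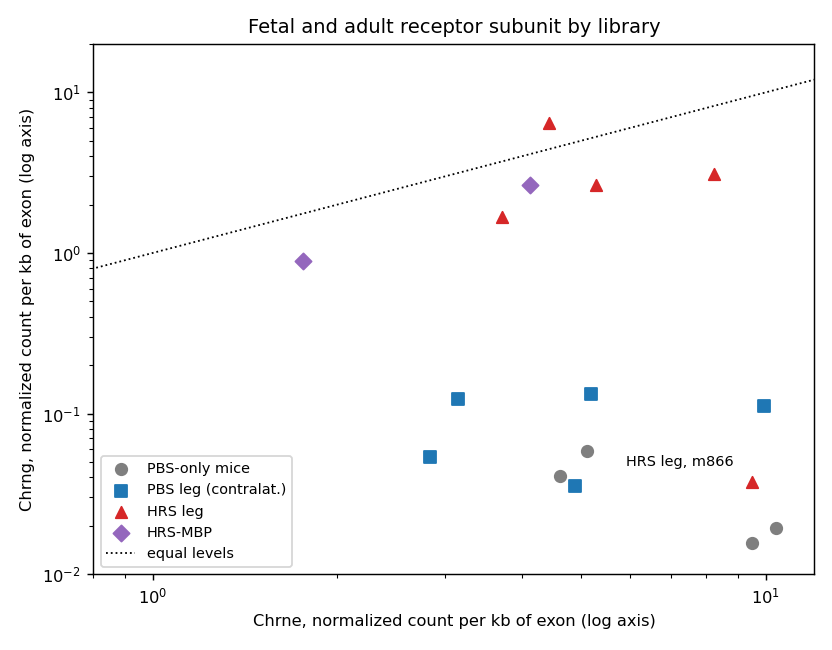
*Chrng* against *Chrne* in each library, as normalized count per kilobase of annotated exon (both axes log). Symbols mark the 4 groups and the dotted line equal levels. The HRS leg of m865 lies above the line (6.4 against 4.42), and the HRS leg of m866 lies among the PBS libraries at 0.0374 for *Chrng*.

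Of the genes that act at the junction beside the receptor, *Musk* encodes the receptor kinase that answers to agrin from the nerve. It was low in every library, at 5.14, 3.95, 3.52, 4.36 and 2.84 in the HRS legs and at 1.51, 4.14, 2.91, 1.35 and 1.27 in the PBS legs of m862 to m866. In the PBS-only mice it was at 3.04, 4.41, 1.58 and 3.65, and HRS-MBP at 4.97 and 1.76. The groups overlapped, and the HRS leg was higher in 4 of 5 mice. Its log2 fold change was 0.80 ± 0.32 (SE, limma, adjusted p = 0.0397), under the fold threshold.

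*Ache* encodes acetylcholinesterase, which ends the signal in the synaptic cleft. The values were 47.1, 47, 24.9, 33.9 and 52.9 in the HRS legs and 25.1, 61.4, 43.3, 36.3 and 32.6 in the PBS legs of m862 to m866. PBS-only values were 39.6, 61.9, 30.8 and 69.7 and the HRS-MBP libraries at 33 and 23.8. As for *Chrne*, the HRS leg was the higher in m862 and m866 and the lower in the other 3 mice. The log2 fold change was 0.06, with an interval at 95% of -0.51 to 0.64 (adjusted p = 0.848 from limma).

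*Ncam1* was at 49.6, 47.7, 43.8, 87 and 8.07 in the HRS legs and at 4.01, 9.31, 8.08, 7.12 and 6.84 in the PBS legs of m862 to m866. The PBS-only legs were at 6.82, 9.66, 8.01 and 12.8, and the HRS-MBP libraries at 46.2 and 15. The HRS legs of m862 to m865 stood far above all PBS legs, and that of m866 was within them. Its mean was 47.2 ± 28 (SD, n = 5) against 7.07 ± 1.97 (SD, n = 5), with a log2 fold change of 2.38 ± 0.48 (SE, limma, adjusted p = 0.001).

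*Runx1* was at 38.4, 40.2, 43.7, 63.6 and 8.1 in the HRS legs and at 1.73, 8.5, 3.79, 3.15 and 4.36 in the PBS legs of m862 to m866. Legs of PBS-only mice were at 3.38, 3.68, 6.07 and 4.63, and HRS-MBP at 43.1 and 27.3. It was the only gene of the 9 whose 5 HRS legs all lay above all PBS-only legs, as they did for 26.6% of tested genes, and among the contralateral legs only that of m863, at 8.5, was above the HRS leg of m866. The log2 fold change against the contralateral legs was 2.93 ± 0.45 (SE, limma, adjusted p = 0.000125).

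Between HRS and contralateral PBS legs, limma thus called 5 of the 9 genes higher (adjusted p below 0.05 over all genes tested and a log2 fold change above 1), beside 16.9% of the 16414 tested genes, and 0 lower, beside 6.27%. At an unadjusted p below 0.05, 7 of the 9 differed, beside 65.4% of tested genes in either direction, all 7 with higher means in HRS legs, and limma-voom gave the same counts of 5 and 0. The median log2 fold change was 2.28 over the 9 genes and 0.08 over all tested genes. Within mice, 5 genes were higher in the HRS leg of 5 of 5 mice (*Chrna1*, *Chrnb1*, *Chrnd*, *Ncam1* and *Runx1*), a pattern of 26.3% of tested genes. In an exact two-sided sign-flip test over the 5 mice, each of these 5 genes reached the smallest p that 5 mice allow, 2 of 32 sign patterns, which is above 0.05. *Chrng* and *Musk* stood at 4 of 32, and p was 0.562 for *Chrne* and 0.875 for *Ache*. Exact permutation of the 10 libraries, for which the smallest two-sided p is 0.00794, gave 0.0159 for *Chrna1*, *Chrnd* and *Runx1*, 0.0238 for *Ncam1*, 0.0397 for *Chrng*, 0.0556 for *Chrnb1* and *Musk*, 0.46 for *Chrne* and 0.825 for *Ache*, before any correction for the 9 genes.

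With all legs, 0 of the 9 genes had HRS legs all above the contralateral legs, beside 18.3% of tested genes. Without the HRS leg of m866, 6 did (*Chrna1*, *Chrnb1*, *Chrnd*, *Chrng*, *Ncam1* and *Runx1*), beside 33.5%. Without that leg, the log2 fold changes against the contralateral legs were 2.73 for *Chrna1*, 2.76 for *Chrnd*, 3.95 for *Chrng*, 2.92 for *Ncam1* and 3.41 for *Runx1*, and the same 5 genes were called. They were 0.82 for *Chrnb1*, 0.90 for *Musk*, 0.13 for *Chrne* and -0.04 for *Ache*. Among the mice, m862 and m865 had the largest differences between legs for each of the 5 called genes. On the log2 scale they were 3.77 and 3.34 for *Chrna1*, 3.9 and 3.54 for *Chrnd*, and 4.21 and 5.39 for *Chrng*. In m863 and m864 they were 1.4 and 1.92 for *Chrna1*, 1.75 and 1.99 for *Chrnd*, and 3.59 and 2.83 for *Chrng*. In m866 they were 0.97 for *Chrna1*, 0.53 for *Chrnd*, 0.22 for *Ncam1*, 0.82 for *Runx1* and -0.63 for *Chrng*.

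**Figure D3:**
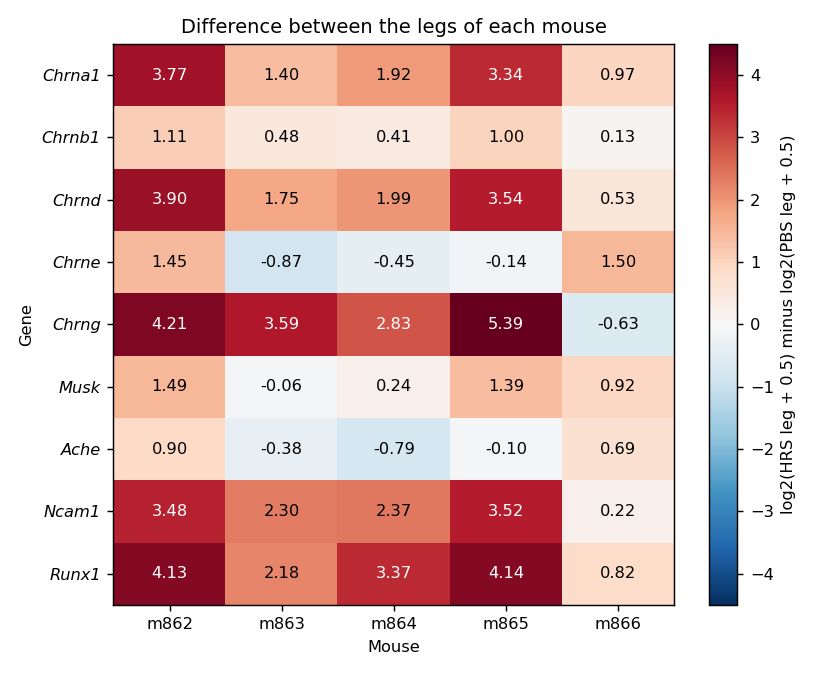
Difference between the HRS leg and the PBS leg of each mouse, as log2(value + 0.5), for the 9 genes (rows) and 5 mice (columns), with red for higher in the HRS leg. *Chrng* differs by 2.83 to 5.39 in m862 to m865 and by -0.63 in m866, and *Chrne* and *Ache* change sign between mice.

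Because HRS was always on the left in these mice, the sides of the PBS-only mice give the difference seen without HRS. There, 6 of the 9 genes were higher in the left leg of both mice (*Chrna1*, *Chrnd*, *Chrne*, *Musk*, *Ache* and *Ncam1*), as were 22.4% of tested genes. The left leg was at 2.24 and 1.9 times the right for *Chrna1*, at 2.25 and 1.86 times for *Chrne*, and at 1.56 and 2.26 times for *Ache*. It was lower for *Chrng*, at 0.474 and 0.269 times, on 1 to 6 reads a library. *Runx1*, at 1.09 and 0.763 times, and *Chrnb1*, at 0.858 and 1.09 times, differed in direction between the mice.

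The calls depended on how side was treated. With the difference between sides of the PBS-only mice subtracted, 1 gene of the 9 was called, beside 12.2% of tested genes in either direction. It was *Runx1*, with a log2 fold change of 3.05 (adjusted p = 0.0365 from limma). The values were then 3.38 for *Chrng* (adjusted p = 0.0887), 1.82 for *Ncam1* (0.147), 1.65 for *Chrnd* (0.157) and 1.28 for *Chrna1* (0.274). This fit rests on 2 PBS-only mice and was added after the data were seen. *Chrnb1* (0.67) and *Musk* (0.06) were not called in it, and *Chrne* and *Ache* stood at -0.69 and -0.84, neither past the threshold. The left leg of the PBS-only mice was at 1.45 and 2.31 times the right for *Musk*.

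**Figure D4:**
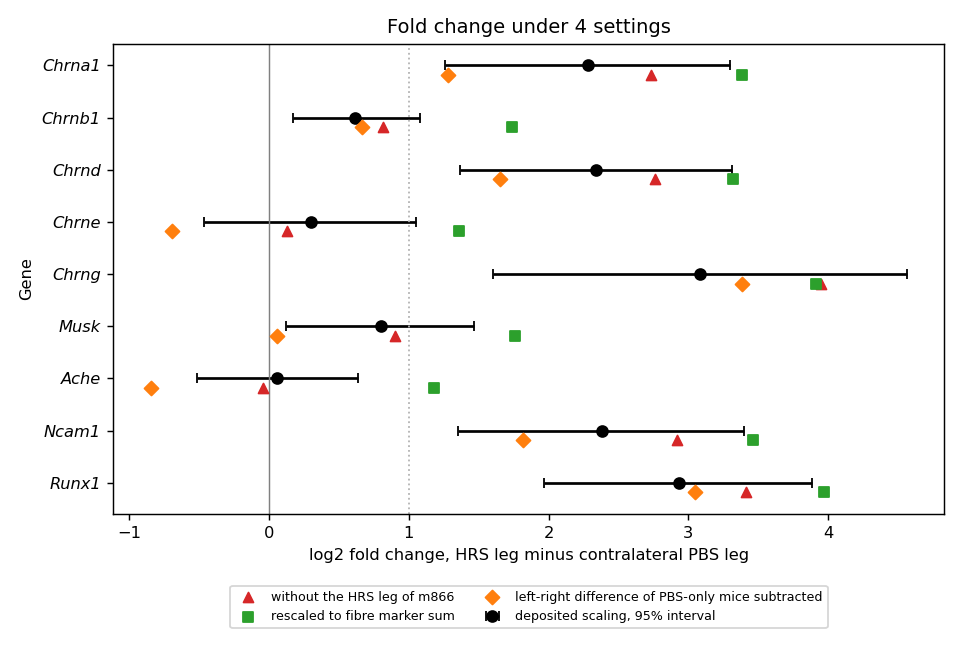
Log2 fold change of the 9 genes between HRS and contralateral PBS legs under 4 settings. Black points with bars are the deposited scaling with the interval at 95%, and the dotted line is the fold threshold of 1. *Runx1* and *Chrng* are at 3.05 and 3.38 with the side difference of PBS-only mice subtracted (orange), and *Chrna1* falls to 1.28.

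Against the PBS-only mice, the same 5 genes were called higher, beside 18.9% of tested genes, and 0 lower, beside 5.87%. This comparison shares its HRS legs with the one above. The log2 fold changes were 2.06 for *Chrna1*, 1.85 for *Chrnd*, 3.52 for *Chrng*, 1.99 for *Ncam1* and 2.77 for *Runx1*, with adjusted p of 0.0012 for *Chrng* and 0.000284 for *Runx1* from limma. *Chrnb1* was at 0.83, *Musk* at 0.33, *Chrne* at -0.24 and *Ache* at -0.27. Without the HRS leg of m866, *Chrng* was at 4.39, *Runx1* at 3.25, *Ncam1* at 2.53, *Chrna1* at 2.51 and *Chrnd* at 2.26, and *Chrnb1*, at 1.02 (adjusted p = 0.000134 from limma), was called as well. *Musk* was then at 0.43, *Chrne* at -0.40 and *Ache* at -0.37. With the left legs of the PBS-only mice alone as the reference, 2 genes were called, beside 25.6% of tested genes in either direction, *Chrng* at 3.67 (adjusted p = 0.0118) and *Runx1* at 2.83 (0.00483), while *Chrna1* stood at 1.55 (0.0621), *Chrnd* at 1.50 (0.0621) and *Ncam1* at 1.71 (0.0515). The 4 PBS-only libraries are legs of 2 mice, so the p-values of this group measure the spread between legs as well as mice.

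The contralateral PBS legs were compared with PBS-only mice to see whether the leg without HRS differed. Limma called 0 of the 9 genes, beside 0.00609% of tested genes in either direction, and 0 of them had an unadjusted p below 0.05, beside 5.5% of tested genes, with limma-voom also calling 0. The log2 differences ran from -0.54 for *Chrne* (interval at 95% of -1.34 to 0.27) to 0.44 for *Chrng* (-1.13 to 2.02). Over the 9 genes the intervals reached from -1.52 (*Chrnd*) to 2.02 (*Chrng*). The contralateral legs were all right legs, whereas 2 of the 4 PBS-only libraries were left legs. Against the right legs of the PBS-only mice alone, a setting added after the data were seen, the differences ran from -0.22 for *Runx1* to 0.29 for *Chrng*, that of *Chrne* was -0.04, and 0 of the 9 genes were called. *Chrng* was at 0.38 ± 0.182 (SD, n = 5) in contralateral legs and 0.14 ± 0.0828 (SD, n = 4) in PBS-only legs.

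For the 5 genes called in HRS legs, the HRS-MBP library of m861 lay below the HRS legs of m862 to m865 and above all PBS libraries. This describes 1 library, and the share of all tested genes with the same pattern was not counted. Against PBS-only mice, 2 of the 9 genes were called higher, beside 20.7% of tested genes, and 1 lower, beside 10.2%. *Chrng* was at 3.45 (adjusted p = 0.00704) and *Runx1* at 2.85 (adjusted p = 0.0016 from limma), and *Chrne* fell by 1.26 on the log2 scale (adjusted p = 0.0369). *Chrna1* (1.56, adjusted p = 0.0536), *Ncam1* (1.49, 0.0644) and *Chrnd* (1.39, 0.0683) missed the threshold, although both HRS-MBP libraries lay above all PBS-only legs for each of them, as for 39.8% of tested genes. These values depended on the library of m860, and without it were 1.09, 0.69 and 0.94, against 2.03, 2.28 and 1.84 without that of m861, where *Ncam1* was called (adjusted p = 0.0405). *Chrna1* was also called in limma-voom (adjusted p = 0.0485) and without the left leg of m867 (1.80, 0.0424). With 2 libraries against 4, exact permutation cannot go below p = 0.0667. The *Chrne* call was lost in limma-voom (adjusted p = 0.0556) in the fit with the PBS-only legs averaged per mouse (0.0698) and with no filter on low values (0.0513). It was also lost without the left leg of m867 (-1.08, 0.0884), without the left leg of m868 (-1.12, 0.0808) and without the library of m861 (-0.71, 0.352), and the value was 0.03 with scaling to the fibre markers. Without the library of m860 *Chrng* was at 2.72 (0.0933) and not called. Between HRS-MBP and HRS legs, limma called 0 of the 9 genes, beside 0.463% of tested genes, and limma-voom also called 0. At an unadjusted p below 0.05 there was 1, beside 14.4% of tested genes, and it was *Chrne*, at 4.98 ± 2.83 (SD, n = 2) against 10.5 ± 4.24 (SD, n = 5), adjusted p = 0.334.

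Levels between genes can be set side by side only per length, here as normalized counts per kilobase of annotated exon. In the PBS-only legs the medians were 11 for *Ache*, 10.4 for *Chrnb1*, 7.29 for *Chrne*, 2.76 for *Chrna1*, 1.02 for *Ncam1*, 0.96 for *Chrnd*, 0.886 for *Musk*, 0.345 for *Runx1* and 0.0302 for *Chrng*. The ranges of *Ache*, *Chrnb1* and *Chrne* overlapped, as did those of *Ncam1*, *Chrnd* and *Musk*. *Musk* reached down to 0.418 where *Runx1* reached up to 0.504, and *Chrne* reached down to 4.61 where *Chrna1* reached up to 4.62. All these neighbours are therefore not separated by their spread. *Chrng* lay below *Runx1* without overlap. In the HRS legs the medians were 18.7 for *Chrnb1*, 13 for *Chrna1*, 10.2 for *Ache*, 5.5 for *Ncam1*, 5.28 for *Chrne*, 4.64 for *Chrnd*, 3.34 for *Runx1*, 2.66 for *Chrng* and 1.05 for *Musk*. *Chrna1* thus stood above *Chrne* in median in HRS legs and below it in PBS-only legs, and the ranges of neighbours in this order overlapped.

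Other genes of the neuromuscular junction were counted from a list of 19, of which 18 were tested. Between HRS and contralateral legs, 3 were higher and 0 lower, a share of the list close to the 16.9% of all tested genes that were higher. *Phldb2* and *Nrg1* (a growth factor that acts through ErbB receptors) were at 1.37 and *Erbb2* at 1.01 on the log2 scale. *Nrg1* was at 0.0623 to 2.07 in HRS legs and 0 to 0.147 in contralateral legs. The latter values are under the added constant of 0.5, so its fold change depends on that constant. The list's median was 0.35. *Colq*, the collagen tail that anchors acetylcholinesterase, was at 0.98 and *Agrn* (agrin) at 0.90, both under the fold threshold, and the scaffold gene *Rapsn*, which ties receptors into clusters, was at -0.52.

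Of 15 genes known to respond to denervation, 5 were higher and 2 lower, beside 16.9% and 6.27% of all tested genes. The higher genes included the embryonic and perinatal myosins *Myh3* (3.48) and *Myh8* (2.63), the myogenic factor *Myog* (2.01) and the cell cycle inhibitor gene *Cdkn1a* (1.34). The lower genes were *Fbxo32* (-1.55) and *Trim63* (-1.26), the ubiquitin ligases that rise in atrophy after denervation. The list's median was 0.23 and 8 of its genes were not called. *Fbxo32* was at 168, 133, 70.5 and 207 in the HRS legs of m862 to m865 and at 600 in that of m866, against 374 to 680 in contralateral PBS legs. *Myh3* was at 132 to 557 in the HRS legs of m862 to m865 and at 3.94 in that of m866, against 5.57 to 35.9. The HRS leg of m866 was thus within the contralateral PBS legs for *Fbxo32* and below every PBS library for *Myh3*.

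Among 9 genes of satellite cells and new fibres, 5 were higher and 0 lower, beside the same shares of all tested genes, with a median of 2.01. *Mymk* (3.78) and *Mymx* (2.88), which encode the proteins of myoblast fusion, were called beside *Myh3*, *Myh8* and *Myog*, while *Pax7* (0.24), *Myf5* (0.19) and *Myod1* (-0.15) were not. *Mymk* was at 31.5, 27.6, 16, 59.1 and 0.623 in the HRS legs of m862 to m866, against 0.192 to 1.43 in the contralateral PBS legs. Of 11 other nicotinic receptor genes, 8 were in the table and 3 were tested. *Chrnb2* was higher (1.03) and *Chrna10* lower (-1.16), beside 16.9% and 6.27% of all tested genes. In the RUNX family, *Runx2* (2.44) and *Runx3* (2.91) were higher, beside 16.9% of all tested genes, and their partner *Cbfb* was at -0.35.

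For each gene the nearest 3 were found by the root mean square difference of log2 values over the 16 libraries, after centring. *Chrna1* was nearest to *Chrnd* (0.30), *Ncam1* (0.33) and *Ttc9* (0.40), and *Chrnd* to *Chrna1* (0.30), *Ncam1* (0.32) and *Col26a1* (0.33). *Chrng* was nearest to *Tnnt2* (0.41), *Mymk* (0.43) and *Mymx* (0.44). *Chrne* was nearest to *Ache* (0.30), *Ufsp1* (0.33) and its overlapping antisense gene *4930544D05Rik* (0.37), and *Ache* to *Ufsp1* (0.22), *Ypel2* (0.25) and *Dusp18* (0.26). *Ncam1* was nearest to *Bcat1* (0.26), *Capn6* and *Zfp469* (both 0.31), *Runx1* to *Gxylt2* (0.34), *Arl4c* (0.35) and *Vcan* (0.37), *Musk* to *Prr15* (0.28), *Lin28a* (0.31) and *Itga9* (0.33), and *Chrnb1* to *Mir100hg* (0.18), *Zfp568* (0.19) and *Gpr20* (0.21). *Chrna1* and *Chrnd* were thus near each other and *Ncam1*, and *Ufsp1* was near both *Chrne* and *Ache*. These distances share libraries and groups and carry no test.

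Markers of leukocytes and fibroblasts moved with the groups, whereas most Schwann cell markers were not called between HRS and contralateral legs. All 10 leukocyte markers were called higher in HRS legs, beside 16.9% of all tested genes, at a median of 3.17 on the log2 scale. Their sum ran from 1018 to 5132 in HRS legs. It was 85.8 to 247 in contralateral legs, 87.5 to 191 in PBS-only legs, and 3958 and 4289 in the HRS-MBP libraries. In the HRS leg of m866 the leukocyte sum, 1018, was above every PBS library, while *Runx1*, at 8.1, and *Chrng*, at 0.156, were within the range of the contralateral legs. Of 6 fibroblast markers 3 were called higher, beside the same share of all tested genes. The sum of the 6 was 1973 to 18514 in HRS legs, 923 to 2172 in contralateral legs, 890 to 1697 in PBS-only legs and 4363 to 9705 with HRS-MBP. Of 8 Schwann cell markers, 2 were called higher (*Ngfr* and *Mag*), beside 16.9% of all tested genes, the median was -0.21, and the sum was 57.4 to 190, 82.5 to 383, 106 to 212 and 70.1 to 122 in the same order of groups. No marker on these 3 lists was at 0 in all libraries of a group. Their part in the rise of *Runx1* and *Ncam1*, which such cells can make, was not tested.

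**Figure D5:**
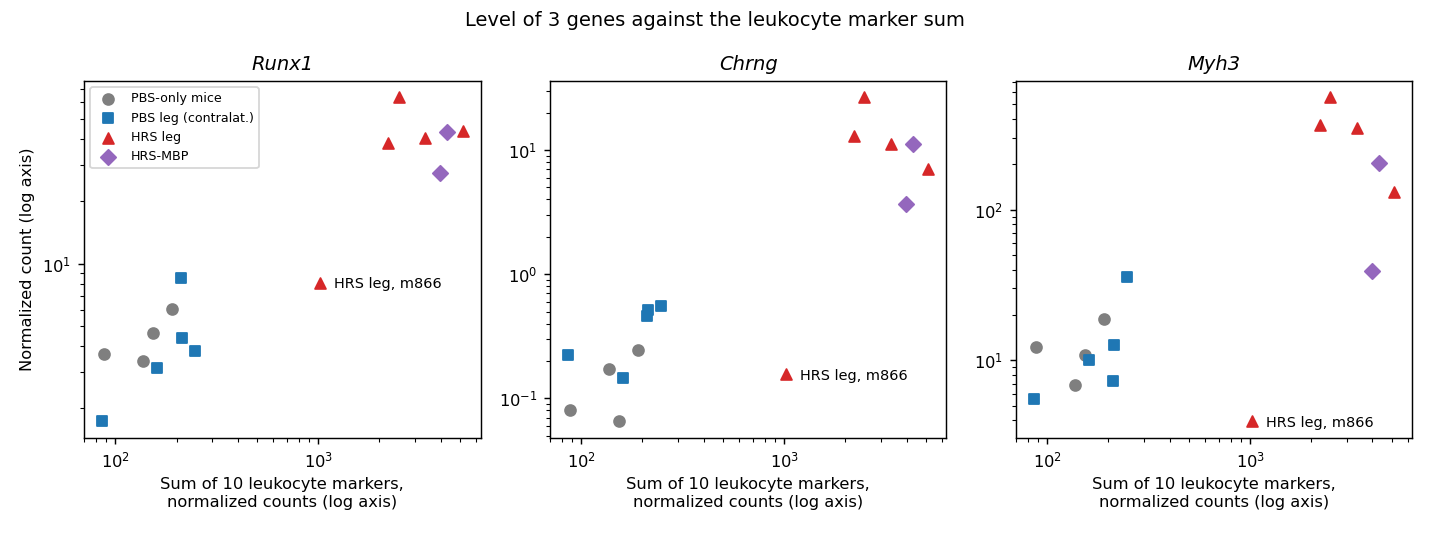
Normalized counts of *Runx1*, *Chrng* and *Myh3* against the sum of 10 leukocyte markers in each library (all axes log), with symbols for the 4 groups. The HRS leg of m866 has a leukocyte sum of 1018, above all PBS libraries, with *Chrng* at 0.156 and *Myh3* at 3.94.

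Fibre markers moved the other way, with 6 of 12 called lower in HRS legs, beside 6.27% of all tested genes, and a median of -1.11. Their sum was 50903 to 213005 in HRS legs, 157149 to 255618 in contralateral legs, 193863 to 231779 in PBS-only legs, and 82928 and 83608 with HRS-MBP. In bulk tissue, fewer cells of a type and less RNA per cell cannot be told apart. When values were rescaled to the fibre marker sum, all 9 genes were called higher in HRS than in contralateral legs, beside 55.6% of tested genes, with *Chrne* at 1.36 and *Ache* at 1.18. This scaling moved the median of all tested genes from 0.08 to 1.10, so that *Chrne* and *Ache* stood 0.26 and 0.08 above it and *Chrng*, at 3.91, stood 2.81 above it.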

How the data were processed

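The authors deposited 1 table of normalized counts per gene for the mouse libraries (a signal whose scale is the authors' own), and the submitters' processing notes name STAR 2.7.8a and limma. The normalization is not given in the sources used here. Positions in 99% of the 25652 genes matched by symbol and chromosome were those of GENCODE M21 (GRCm38), with the stop 1 base higher, although the notes list mm39. Of the low values, 74.9% to 77% equalled an exact multiple of the commonest non-zero value to within 0.02 of it, so whole reads were not recovered for all genes and no count model was run across genes. Reads implied by that value serve only to describe depth and the counting error of *Chrng*. No per-sample column was left unused (0).

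Values were tested as log2(value + 0.5) in the 16414 genes whose mean over 16 libraries reached 0.5, with limma 3.58.1 in R 4.3.3 (lmFit, eBayes with a mean trend) in a fit of 4 groups. The adjusted p is Benjamini-Hochberg over all tested genes, and a call needs 0.05 and an absolute log2 fold change above 1. For the 9 genes, exact permutation of libraries and exact sign flips over mice were added. The fits were tested on simulated data.

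Groups came from the titles and treatment labels, and the side from the titles. The legs of m862 to m866 are paired by mouse. Deviations of a mouse's legs from their group means correlated across genes at 0.119, 0.163, 0.0972, -0.0256 and -0.366. The fit behind the text has no block.

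The 9 genes and the gene lists were chosen with earlier results of these data known. Named from the lists are at most the 5 called genes with the largest change per list, and the 3 nearest genes for each of the 9. *Agrn*, *Colq*, *Rapsn*, *Pax7*, *Myf5*, *Myod1*, *Cbfb*, *Ngfr* and *Mag* were named after their values were seen. The alternatives changed the added constant, the scaling, the low-value filter, the model of variance, the use of mouse as a block and which libraries entered. Leaving out both legs of m866 and the 3 treatments of side were added after the data were seen. From the list of denervation genes, 1 called gene is not reported here. Human libraries and single cells were not analysed here.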

Additional observations from a re-analysis of the deposited data

Results flagged for a closer look

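Library values within each group were checked for 1 lying far from the rest, on the log2 scale, in 45 groups of values (the 9 genes, the ratio of *Chrng* to *Chrne* and 5 marker sums, each in 3 groups), and 6 had such a library, where chance gives about 1 in 20. The HRS leg of m866 was low for *Runx1* (3.10 as log2(value + 0.5), or 8.1 normalized counts against 38.4 to 63.6 in the other HRS legs). The same leg was low for the fibroblast marker sum (log2 of 10.95). The contralateral PBS leg of m866 was low for the fibre marker sum (17.26). Low values were also found for the fibroblast marker sum in the left leg of PBS-only mouse m867 (9.80) and the Schwann cell marker sum in the HRS leg of m863 (5.84). The marker sum of satellite cells and new fibres was high in the contralateral PBS leg of m864 (8.10).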

How the results depend on the processing

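The count of genes called between HRS and contralateral PBS legs was 5 in the main fit, 9 with scaling to the fibre marker sum and 1 with the side difference of PBS-only mice subtracted. Against PBS-only mice it was 5, and 2 with their left legs alone. With HRS-MBP against PBS-only mice it was 3, and 6 both with fibre scaling (beside 63.6% of all tested genes called) and in a fit of those groups alone (beside 31.9%). With the replicate block, mouse as a fixed term gave 5 called genes of the 9 and 3652 of all tested, and mouse as a random term 5, so the block changed no call between the legs. As a random term it added *Chrna1* in HRS-MBP (1.56, adjusted p = 0.05 from limma, 4 genes called). With any 1 library left out, the counts were 5 to 6 for HRS against contralateral legs, 5 to 6 against PBS-only mice and 2 to 3 for HRS-MBP. The difference in the log2 ratio of *Chrng* to *Chrne* (2.78) was 2.21 to 3.82 with any 1 library left out, 3.35 with a smaller added constant than 0.5 and 1.85 with 2.

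Direction changed only for values that were small or not called, with 1 exception, *Chrne* in HRS-MBP against PBS-only mice (0.03 with fibre scaling). For HRS against contralateral legs, *Ache* was at -0.01 with median-of-ratios rescaling, -0.02 with quantile normalization, -0.09 without both legs of m866 and -0.84 with side subtracted, and *Chrne* at -0.09, -3.3e-03 and -0.69 in the last 3. Against PBS-only mice, *Musk* was at -0.18 with quantile normalization and -0.04 with left legs alone, and fibre scaling put *Chrne* at 0.82 and *Ache* at 0.83. For HRS-MBP against PBS-only mice, *Musk* was at -1.1e-03 with the smaller added constant, -0.06 with median-of-ratios and -0.54 with quantile normalization, and *Ache* at 0.61 with fibre scaling. For contralateral against PBS-only legs, *Chrna1* was at 0.28 and *Ache* at 0.12 with right legs alone. For HRS-MBP against HRS legs, *Chrng* was at 0.12 with the smaller added constant and 0.10 with fibre scaling. With any 1 library left out, *Ache* ran from -0.08 to 0.24 (HRS against contralateral legs). *Chrna1* ran from -0.47 to 0.03 and *Runx1* from -0.42 to 0.08 (contralateral against PBS-only). *Musk* ran from -0.63 to 0.64 (HRS-MBP against PBS-only). *Chrng* ran from -0.94 to 0.66, *Musk* from -0.96 to 0.32, *Ncam1* from -1.30 to 0.29 and *Runx1* from -0.40 to 0.41 (HRS-MBP against HRS legs). The causes of these changes were not tested. The shallowest library, the right leg of m868, had the worth of 2 reads of *Chrng*, and 3 of the 4 PBS-only libraries had fewer than 3.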
